A study of Homo sapiens with 9 samples.

Results

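A list of 31 genes of endoplasmic reticulum (ER) protein folding and of the unfolded protein response was followed through 9 RNA-seq libraries (total RNA with ribosomal RNA removed) from HuH-7, a line derived from a human hepatocellular carcinoma. Membership follows a list of gene symbols with no threshold on measured values, although the list was drawn up with earlier results of these data known. Each of the 31 symbols matched an Ensembl gene identifier among the 63677 in the count files. Of these, 30 had at least 1 CPM (reads relative to library size, before scaling) in all 9 libraries and were among the 18237 genes tested. The remaining member, DERL3, a Derlin of ER-associated degradation, had 1 count in the control library and 0 in the other 8, so no ratio is given for it. A count of 0 allows a level of up to 0.351 CPM in the deepest library and 3.82 CPM in the shallowest, taking 3 counts as the limit.

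Each condition has 1 library, and exposure times were not given in the sources used here. The treated cultures had acetaminophen (10 mM), exosomes (those of 1 ml of serum), both of these together, caffeine at 2 mM, acetaminophen with caffeine at those doses, arsenic at 5 µM, arsenic at 15 µM, or arsenic and copper together at 5 µM each. They were set against 1 untreated control culture. HuH-7 is a single cancer-derived line, the chemical forms of arsenic and copper are not stated in the labels, and no condition was replicated, so a ratio between 2 libraries compares those libraries and not the conditions.

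The ER is where secreted and membrane proteins are folded, glycosylated and joined by disulfide bonds, and hepatocyte-derived cells secrete large amounts of plasma protein through it. When unfolded proteins accumulate, the membrane sensors IRE1 (encoded by ERN1), PERK (EIF2AK3) and ATF6 act: IRE1 splices XBP1 mRNA into the form that encodes an active transcription factor, PERK slows translation and favours synthesis of ATF4, and ATF6 is cleaved to release a transcription factor. The cleaved ATF6 and spliced XBP1 proteins are known to act on ER stress response elements in the promoters of chaperone genes. Gene-level counts do not separate spliced from unspliced XBP1 mRNA.

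The promoter sequences of 6 members are shown because they carry, or lack, the elements by which the chaperone genes are known to be controlled. They are RefSeq windows on GRCh38.p14, from 250 bases before to 50 bases after a gene's start, printed on the gene's strand. Capitals mark each match, on either strand, to the ER stress response element (ERSE, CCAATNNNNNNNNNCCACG) or to its second form (ERSE-II, ATTGGNCCACG). The windows lie at chr9:125241294-125241593 on the minus strand (HSPA5), chr12:103930160-103930459 on the plus strand (HSP90B1), chr19:12938359-12938658 on the plus strand (CALR), chr22:28800520-28800819 on the minus strand (XBP1), chr16:56931892-56932191 on the plus strand (HERPUD1) and chr17:64130095-64130394 on the minus strand (ERN1).
HSPA5: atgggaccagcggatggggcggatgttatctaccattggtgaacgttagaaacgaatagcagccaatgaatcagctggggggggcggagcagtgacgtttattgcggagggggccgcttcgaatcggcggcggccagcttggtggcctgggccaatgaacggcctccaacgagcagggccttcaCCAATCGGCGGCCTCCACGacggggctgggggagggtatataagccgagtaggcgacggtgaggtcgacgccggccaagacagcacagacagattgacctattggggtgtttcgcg
HSP90B1: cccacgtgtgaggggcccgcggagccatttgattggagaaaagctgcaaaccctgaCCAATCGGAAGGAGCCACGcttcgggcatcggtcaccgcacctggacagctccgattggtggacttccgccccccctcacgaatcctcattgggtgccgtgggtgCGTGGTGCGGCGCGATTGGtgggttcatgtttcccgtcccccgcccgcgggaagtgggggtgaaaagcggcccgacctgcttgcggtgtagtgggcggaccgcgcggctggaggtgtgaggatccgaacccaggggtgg
CALR: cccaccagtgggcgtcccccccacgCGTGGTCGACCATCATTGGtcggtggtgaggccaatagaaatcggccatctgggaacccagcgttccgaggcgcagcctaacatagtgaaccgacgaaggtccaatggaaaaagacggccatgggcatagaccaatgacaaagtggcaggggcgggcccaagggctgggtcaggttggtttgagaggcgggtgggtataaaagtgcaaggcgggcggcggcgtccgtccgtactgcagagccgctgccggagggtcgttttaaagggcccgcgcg
XBP1: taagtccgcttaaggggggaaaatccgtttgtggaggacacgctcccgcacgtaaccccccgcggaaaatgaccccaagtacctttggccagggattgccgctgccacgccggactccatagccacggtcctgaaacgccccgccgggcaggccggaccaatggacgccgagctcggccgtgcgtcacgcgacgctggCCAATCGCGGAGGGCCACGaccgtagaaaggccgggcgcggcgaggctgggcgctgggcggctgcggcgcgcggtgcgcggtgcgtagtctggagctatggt
HERPUD1: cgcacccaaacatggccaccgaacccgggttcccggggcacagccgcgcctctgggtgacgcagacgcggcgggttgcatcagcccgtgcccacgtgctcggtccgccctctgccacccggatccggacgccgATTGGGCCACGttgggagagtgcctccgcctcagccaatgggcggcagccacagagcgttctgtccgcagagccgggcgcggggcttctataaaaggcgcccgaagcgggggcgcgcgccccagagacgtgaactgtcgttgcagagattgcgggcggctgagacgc
ERN1: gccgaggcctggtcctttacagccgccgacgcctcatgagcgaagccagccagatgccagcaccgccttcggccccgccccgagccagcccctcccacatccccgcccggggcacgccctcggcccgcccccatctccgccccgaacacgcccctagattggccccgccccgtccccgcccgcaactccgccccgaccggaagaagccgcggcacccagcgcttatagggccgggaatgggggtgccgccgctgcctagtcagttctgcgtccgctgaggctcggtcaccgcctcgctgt

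Windows were found for 28 of the 31 members. Of 27305 genes with a window, 25 (0.0916%) held an ERSE, and 8 of these were members: HSPA5, HSP90B1, CRELD2, CALR, CANX, PDIA6, ERO1B and XBP1. HSPA5 had its match from 66 to 48 bases before the start, XBP1 from 52 to 34 bases before it, and HSP90B1 had 2 matches, 1 on each strand. ERSE-II was held by 19 genes (0.0696%), among them HYOU1, SDF2L1 and HERPUD1, and in HERPUD1 it lay from 117 to 107 bases before the start. The XBP1 and ATF6 motif TGACGTGG was in 0.927% of genes and in HYOU1 among the members, where it overlaps an ERSE-II. The ATF4-type motif TGATGNAA was in 4.46% of genes and in HERPUD1 among the members. Their parts alone were common, CCAAT in 39.7% and CCACG in 42.1% of genes, and they also make up the ERSE matches. The ERN1 window held neither form of the ERSE.

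Counts assigned to genes numbered 8227906 in the deepest library, caffeine, and 658725 in the shallowest, acetaminophen with exosomes, against 951816 in the control. Levels are CPM scaled by the trimmed mean of M-values (TMM). The members together took 0.546% (arsenic with copper) to 1.12% (acetaminophen with caffeine) of the counts, against 0.958% in the control. The share of small nucleolar RNAs was 35.5% with arsenic at 5 µM and 11.5% with acetaminophen, against 4.86% in the control. The members' log2 levels, each relative to the member's mean over the 9 libraries, were set against the GC content of the longest transcript. Pearson's r over the 30 members was −0.57 with arsenic at 5 µM and −0.74 with acetaminophen, against 0.52 in the control. A negative r means lower levels at higher GC content. With arsenic at 15 µM r was −0.30 at a small nucleolar RNA share of 3.41%, and with caffeine 0.27 at 8.35%. Counts of members are also given after a trend on the GC content and length of each gene's longest transcript was removed. The shares of all genes beside counts of members are without that removal, so they are no background for the counts after it. The part of the small nucleolar RNAs was not tested. HuH-7 markers were present: the 12 hepatocyte and hepatoma genes summed to 9917 CPM (arsenic 15 µM) to 28870 CPM (acetaminophen). The 6 fibroblast genes summed to 28.0 to 73.2 CPM and the 4 endothelial genes to 0.371 to 11.2 CPM. The 7 blood and immune genes summed to 27.3 to 272 CPM, with 170 CPM in the control. Of all these markers HBA2 and PECAM1 alone had 0 counts in all 9 libraries. Scaling by DESeq2's size factors in place of TMM shifted all ratios of a pair together, by −0.18 to 0.15 on the log2 scale over 12 pairs, and TMM over protein-coding genes alone did so by −0.14 to 0.13.

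Per kilobase of exon, the median level over the 9 libraries ran from 471 CPM per kb for CALR, the calcium-binding lectin chaperone calreticulin, to 0.764 CPM per kb for ERO1B, an oxidase that recharges the disulfide isomerases. HSPA5 (the ER HSP70, BiP) followed CALR at 221, then P4HB (protein disulfide isomerase) at 207, XBP1 at 203 and SEC61A1, the pore subunit of the translocon, at 110 CPM per kb. The sensors were low on this scale: EIF2AK3 had 5.34, ATF6 4.70 and ERN1 1.70 CPM per kb. The standard deviation of the log2 level over the 9 libraries was smallest for SEC61A1 (0.35) and largest for MANF (1.68), a secreted ER stress protein. Its median was 0.64 over the 28 members averaging at least 20 CPM, close to the 0.70 over all 7268 genes at such levels.

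**Figure D1:**
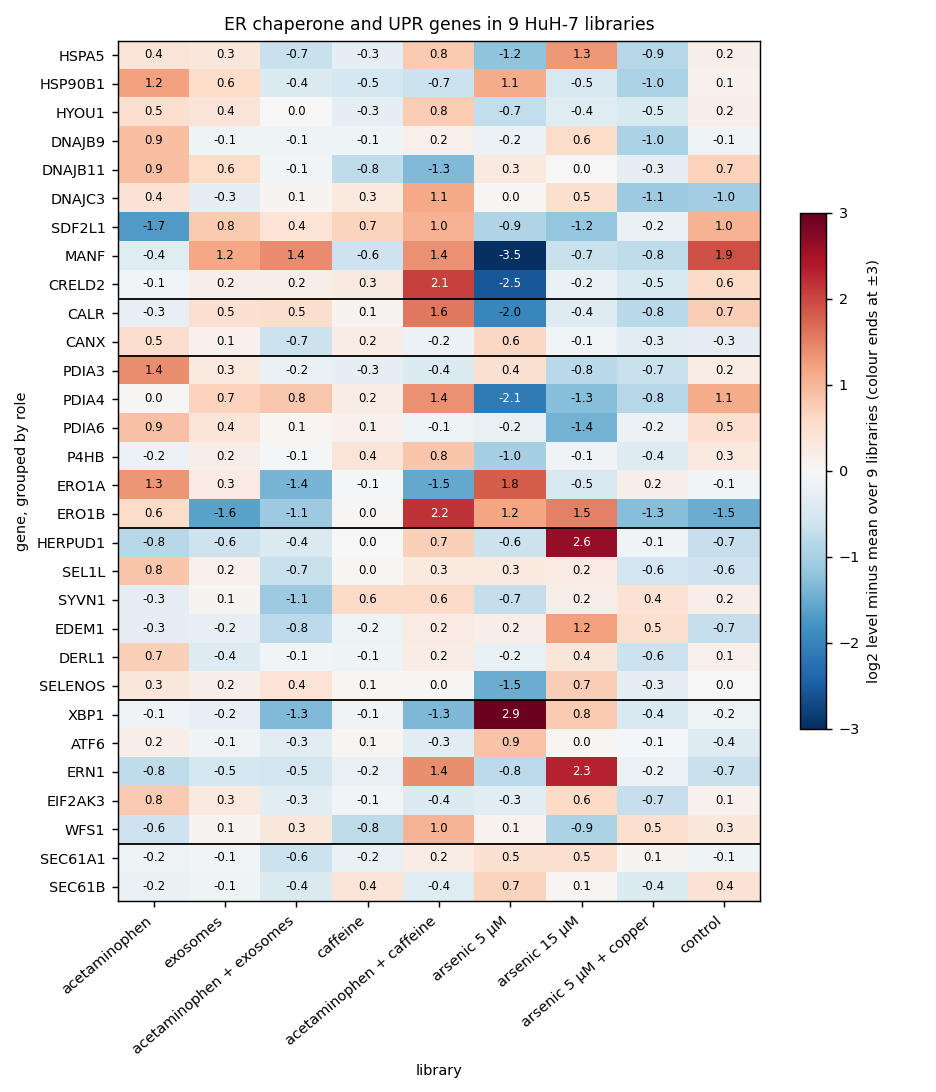
Log2 level of each of the 30 tested genes (rows, grouped by role) in each library (columns, control at the right), as the difference from that gene's mean over the 9 libraries. Among the cells farthest from 0 are XBP1 at 5 µM arsenic, HERPUD1 and ERN1 at 15 µM arsenic, and MANF and CRELD2 (low) at 5 µM arsenic.

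An additive edgeR quasi-likelihood fit over the 9 libraries, with terms for acetaminophen, exosomes, caffeine and arsenic, took departures from additive effects as its spread. The arsenic term covered all libraries with arsenic, at both doses and with copper. Differences between those libraries were counted in that spread too. At a Benjamini-Hochberg adjusted p under 0.05 over all genes, edgeR called no member for acetaminophen, exosomes, caffeine or arsenic. The shares of all genes called were 0.0219%, 0%, 0.0823% and 0.494% in that order. DESeq2 called no member for these terms either, against 52, 0, 56 and 175 of all 18237 genes in the same order. With 4 residual degrees of freedom, a member that was not called is not shown to be unchanged. At an unadjusted edgeR p under 0.05 there were 0 members for acetaminophen (5.35% of all genes), 0 for exosomes (0.62%), 2 for caffeine (7.31%) and 5 for arsenic (9.16%). Of those 5 for arsenic, 3 were higher and 2 lower, against 1061 and 610 of all genes tested. Since no condition was replicated, these p-values take such departures and differences in place of a spread between replicates. Extra terms were then added singly. The edgeR calls held 0 members for acetaminophen by exosomes (0% of all genes), 0 for acetaminophen by caffeine (0%) and 0 for copper (0%), with 0, 1 and 2 members at an unadjusted p under 0.05 (0.477%, 1.09% and 2.35% of all genes), and DESeq2 called none. For arsenic at 15 µM, against the level fitted to the other 2 arsenic libraries, edgeR called 2 members against 1.09% of all genes, both higher (HERPUD1 and ERN1), and DESeq2 called 1 (HERPUD1). For that term 5 members had an unadjusted p under 0.05, against 10.1% of all genes.

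Those calls rest on 1 library at 15 µM. HERPUD1 encodes a ubiquitin-like ER membrane protein that helps bring misfolded proteins to degradation. It had 28.8 CPM with acetaminophen, 33.7 with exosomes, 38.2 with both, 51.8 with caffeine, 85.6 with acetaminophen and caffeine, 33.2 with arsenic at 5 µM, 325 at 15 µM, 47.1 with arsenic and copper, and 31.8 in the control. The arsenic 15 µM library stood above every other library, and the acetaminophen with caffeine library came next. HERPUD1 rose at 15 µM by a log2 fold change of 3.02 (SE 0.76, from the F statistic) with an edgeR adjusted p of 0.0149. ERN1, the sensor gene, had the same 2 highest libraries. It had 15.4 CPM with acetaminophen, 18.5 with exosomes, 17.8 with both, 22.8 with caffeine, 71.1 with acetaminophen and caffeine, 15.3 with arsenic at 5 µM, 132 at 15 µM, 23.7 with arsenic and copper, and 16.4 in the control. ERN1 rose at 15 µM by 2.76 on the log2 scale (SE 0.77) with an edgeR adjusted p of 0.0400, while the DESeq2 adjusted p was 0.0619.

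With single libraries left out, the HERPUD1 fold change stayed between 2.81 and 3.30 on the log2 scale and that of ERN1 between 2.50 and 3.11, but both calls were lost without any 1 of 5 libraries. The edgeR adjusted p of HERPUD1 was then 0.106 without exosomes, 0.0645 without acetaminophen and exosomes, 0.0909 without caffeine, 0.0790 without acetaminophen and caffeine, and 0.195 without arsenic at 5 µM. That of ERN1 was 0.195, 0.128, 0.158, 0.153 and 0.319 in the same order. ERN1 was also not called with no filter on low counts (edgeR adjusted p 0.0624) or with protein-coding genes alone (0.107).

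Among the ER chaperones and their partners, HSPA5 and HSP90B1, the ER forms of HSP70 and HSP90, did not follow each other. HSPA5 had 1011 CPM with acetaminophen, 972 with exosomes, 485 with both, 639 with caffeine, 1327 with acetaminophen and caffeine, 332 with arsenic at 5 µM, 1881 at 15 µM, 425 with arsenic and copper, and 864 in the control. Its highest library was arsenic at 15 µM and its lowest arsenic at 5 µM. HSP90B1 had 1122 CPM with acetaminophen, 701 with exosomes, 357 with both, 335 with caffeine, 304 with acetaminophen and caffeine, 1042 with arsenic at 5 µM, 343 at 15 µM, 247 with arsenic and copper, and 524 in the control. It was high in the acetaminophen and arsenic 5 µM libraries, where HSPA5 was near or below its control level. HYOU1, an HSP70-like exchange factor of HSPA5, varied less, from 205 CPM (arsenic 5 µM) to 577 CPM (acetaminophen with caffeine).

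The J-domain partners of HSPA5 were less abundant. DNAJB9, a J protein that represses IRE1, had 47.0 CPM with acetaminophen, 23.3 with exosomes, 22.9 with both, 23.4 with caffeine, 28.3 with acetaminophen and caffeine, 22.5 with arsenic at 5 µM, 37.3 at 15 µM, 13 with arsenic and copper, and 23.2 in the control. Acetaminophen and arsenic at 15 µM were its high libraries, and the others apart from arsenic with copper lay close to the control. DNAJB11, a J protein that binds unfolded clients, had 161 CPM with acetaminophen, 127 with exosomes, 81.4 with both, 50.7 with caffeine, 34.5 with acetaminophen and caffeine, 105 with arsenic at 5 µM, 85.7 at 15 µM, 70.9 with arsenic and copper, and 140 in the control. Its 2 lowest libraries were the 2 with caffeine. DNAJC3, known as the PERK inhibitor p58IPK, ranged from 17.1 CPM (arsenic with copper) to 80.5 CPM (acetaminophen with caffeine), with 17.4 CPM in the control.

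SDF2L1, MANF and CRELD2 are small ER proteins known to be induced by ER stress. SDF2L1, a partner of DNAJB11, had 4.21 CPM with acetaminophen, 25.1 with exosomes, 19.1 with both, 23.5 with caffeine, 30.3 with acetaminophen and caffeine, 7.66 with arsenic at 5 µM, 6.46 at 15 µM, 12.6 with arsenic and copper, and 29.9 in the control. These rest on few reads, 6 counts with acetaminophen and 31 in the control. MANF had 19.7 CPM with acetaminophen, 57.9 with exosomes, 68.7 with both, 16.7 with caffeine, 67.3 with acetaminophen and caffeine, 2.13 with arsenic at 5 µM (5 counts), 16.1 at 15 µM, 15.2 with arsenic and copper, and 98.4 in the control (102 counts). The control was its highest library, and its 3 lowest were the 3 with arsenic. CRELD2, a secreted protein with EGF-like domains, ranged from 5.10 CPM (arsenic 5 µM) to 128 CPM (acetaminophen with caffeine).

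**Figure D2:**
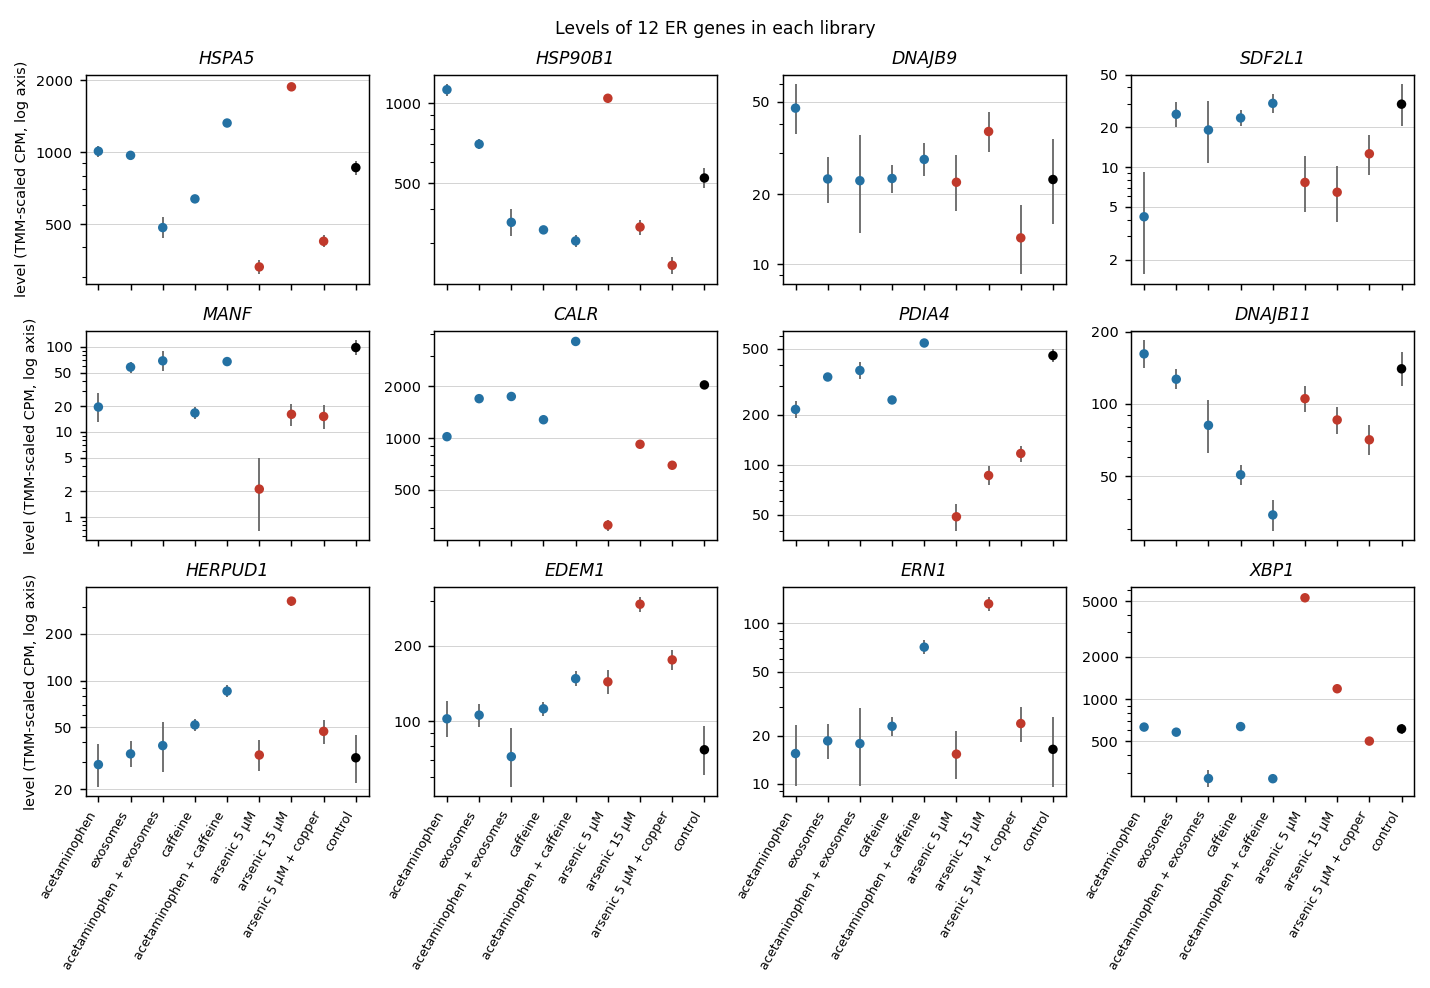
Levels (TMM-scaled CPM, log axis) of 12 members in each library, with exact Poisson 95% intervals that cover counting error alone. Arsenic libraries are red, the other treated libraries blue and the control black; HERPUD1 and ERN1 peak at 15 µM arsenic (325 and 132 CPM) and XBP1 at 5 µM (5285 CPM).

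The lectin chaperones, which hold glycoproteins during folding, differed from each other. The soluble lectin CALR had 1018 CPM with acetaminophen, 1692 with exosomes, 1742 with both, 1277 with caffeine, 3635 with acetaminophen and caffeine, 312 with arsenic at 5 µM, 920 at 15 µM, 695 with arsenic and copper, and 2033 in the control. Its 3 lowest libraries were the 3 with arsenic. CANX, its membrane-bound counterpart calnexin, lay between 342 CPM (acetaminophen with exosomes) and 826 CPM (arsenic 5 µM), with 442 CPM in the control.

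Of the disulfide isomerases, PDIA4 (ERp72) had a pattern close to that of CALR. PDIA4 had 216 CPM with acetaminophen, 338 with exosomes, 370 with both, 246 with caffeine, 542 with acetaminophen and caffeine, 48.5 with arsenic at 5 µM, 86.1 at 15 µM, 117 with arsenic and copper, and 455 in the control. The 3 arsenic libraries were again the lowest. PDIA3 (ERp57, the partner of the lectins) was highest with acetaminophen (673 CPM, against 298 CPM in the control) and lowest with arsenic at 15 µM (146 CPM). PDIA6 was likewise highest with acetaminophen (343 CPM, against 265 CPM in the control) and lowest with arsenic at 15 µM (69.6 CPM). P4HB ran from 575 CPM (arsenic 5 µM) to 2031 CPM (acetaminophen with caffeine). The oxidase ERO1A ran from 16.6 CPM (acetaminophen with caffeine) to 170 CPM (arsenic 5 µM), and ERO1B from 0.965 CPM in the control (1 count) to 18.1 CPM (acetaminophen with caffeine).

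Among the genes of ER-associated degradation, EDEM1, which marks misfolded glycoproteins for disposal, was lowest with acetaminophen and exosomes (72.5 CPM) and highest with arsenic at 15 µM (293 CPM), against 77.2 CPM in the control. SEL1L and SYVN1, the adaptor and the ubiquitin ligase (HRD1) of the main ER degradation complex, reached 127 CPM (acetaminophen) and 42.2 CPM (acetaminophen with caffeine), against 46.3 and 31.8 CPM in the control. SYVN1 shares exon positions with FAU and MRPL49 in GENCODE 29, so its counts are uncertain. DERL1, a channel component, stayed between 25.2 and 64.6 CPM. SELENOS, a selenoprotein that links Derlins to the extraction ATPase, ran from 13.6 CPM (arsenic 5 µM) to 64.9 CPM (arsenic 15 µM).

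Of the regulators, XBP1 stood out in 1 library. XBP1 had 633 CPM with acetaminophen, 582 with exosomes, 272 with both, 638 with caffeine, 271 with acetaminophen and caffeine, 5285 with arsenic at 5 µM (12425 counts), 1188 at 15 µM, 503 with arsenic and copper, and 615 in the control. The 2 libraries that combined acetaminophen with another agent were its lowest. ATF6 was between 28.95 CPM (control) and 70.2 CPM (arsenic 5 µM), and EIF2AK3 between 18.9 CPM (arsenic with copper) and 52.6 CPM (acetaminophen). WFS1, an ER membrane protein that restrains ATF6 signalling, ran from 75.7 CPM (arsenic 15 µM) to 293 CPM (acetaminophen with caffeine), with 180 CPM in the control. The translocon subunits through which chains enter the ER had the narrowest ranges, SEC61A1 between 351 and 762 CPM and SEC61B between 40.7 and 88.9 CPM.

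Arsenic was compared with the control in 3 pairs, which share that control library. A gene was called apart between 2 libraries where the exact conditional binomial 95% interval of its scaled CPM ratio excluded 1 and the ratio, after a prior count of 0.5, was at least 2 in either direction. Such intervals cover counting error only, because they come from the counts of 1 library on each side. These are PCR reads without molecular identifiers, so repeated copies may make the intervals too narrow. The shares of all genes are not matched for level: 28 of 30 members averaged at least 20 CPM, against 7268 of 18237 genes. Genes with more counts have narrower intervals and can be apart more easily. At 5 µM, 5 of 30 members were apart higher and 8 lower, against 16.4% and 15% of all genes. At 15 µM, 6 were higher and 7 lower, against 16.5% and 14.4% of all genes. With arsenic and copper, 1 was higher and 7 lower, against 9.26% and 7.1% of all genes. The median log2 ratio of the members was −0.17 at 5 µM, 0.10 at 15 µM and −0.67 with copper, beside −0.22, −0.16 and −0.03 over all genes tested.

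The members that were lower included folding factors in each of the 3 arsenic libraries. The ratio of MANF to the control was 0.0216 (0.00687 to 0.0521) at 5 µM, 0.164 (0.113 to 0.235) at 15 µM and 0.155 (0.105 to 0.224) with copper. For PDIA4 it was 0.107 (0.0860 to 0.131), 0.189 (0.161 to 0.221) and 0.257 (0.222 to 0.297) in the same libraries, and for CALR 0.154 (0.141 to 0.167), 0.452 (0.427 to 0.480) and 0.342 (0.321 to 0.364). SDF2L1 was also apart lower in each pair, at 0.256, 0.216 and 0.422 of the control. At 5 µM CRELD2 (0.113), SELENOS (0.353), HSPA5 (0.384) and P4HB (0.409) were lower as well, at 15 µM PDIA6 (0.262, 0.217 to 0.316), WFS1 (0.419) and PDIA3 (0.491), and with copper HSP90B1 (0.471), CRELD2 (0.491) and HSPA5 (0.492). In the additive fit the arsenic coefficient was −2.37 for MANF (SE 0.75, edgeR adjusted p 0.165) and −1.98 for PDIA4 (SE 0.69, edgeR adjusted p 0.242), so neither was called. Both depended on the control library, without which the coefficient was 0.34 for MANF and −0.71 for PDIA4. MANF passed the threshold with no filter on low counts (edgeR adjusted p 0.0328), without the caffeine library (0.0458) and without the arsenic 15 µM library (0.0299).

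The members that were higher differed by library. At 5 µM they were XBP1 (ratio 8.60, 7.94 to 9.33), ERO1A (3.74, 2.76 to 5.18), ATF6 (2.42, 1.64 to 3.71), DNAJC3 (2.16, 1.29 to 3.80) and ERO1B (21 counts, against 1 in the control, ratio 9.26, 1.49 to 383). HSP90B1 lay just under the limit there (1.99, 1.81 to 2.19). At 15 µM they were HERPUD1 (10.2, 7.22 to 14.9), ERN1 (8.07, 4.97 to 14), EDEM1 (3.79, 3.01 to 4.83), DNAJC3 (2.95, 1.80 to 5.12), HSPA5 (2.18, 2.03 to 2.34) and ERO1B (32 counts, against 1 in the control, ratio 11.9, 1.99 to 484). With copper, EDEM1 alone was apart higher, at 2.28 times the control (1.79 to 2.92), while HERPUD1 was at 1.48 (1.00 to 2.24) and SEC61A1 at 1.16 (1.05 to 1.28). In the additive fit the arsenic coefficient was 2.28 for HERPUD1 (SE 0.83, edgeR adjusted p 0.284) and 2.10 for ERN1 (SE 0.84, edgeR adjusted p 0.363). It was 2.33 for ERO1B (SE 1.13, edgeR adjusted p 0.533), so none was called. Without the arsenic 5 µM library HERPUD1 (edgeR adjusted p 0.00378) and ERN1 (0.0118) passed the threshold. Without the arsenic 15 µM library their coefficients were 0.53 and 0.56. After the GC and length trend of the log2 ratios was removed, DNAJC3, SDF2L1, P4HB, ERO1B and ATF6 were no longer apart at 5 µM, nor CALR and PDIA3 at 15 µM. SEC61A1 and SEC61B were then apart higher and DNAJB11 lower at 5 µM, and SELENOS and XBP1 higher at 15 µM. The copper pair then had 4 members apart in place of 8, without HSPA5, HSP90B1, SDF2L1 and CRELD2.

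**Figure D3:**
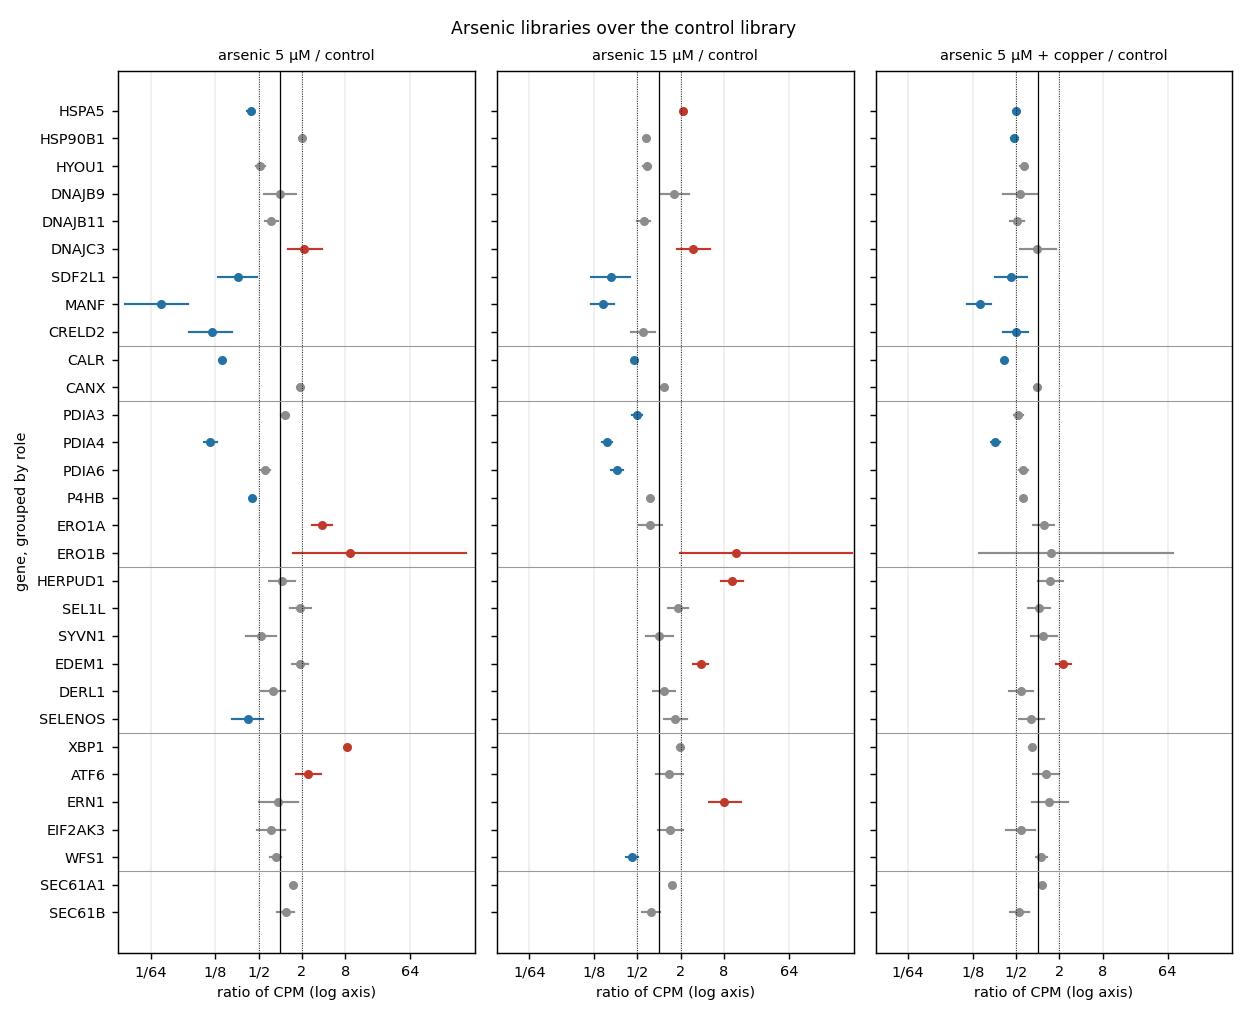
Ratio of each member's scaled CPM in an arsenic library to the control library (log axis), with exact conditional binomial 95% intervals; red and blue points are at least 2 times higher or lower with an interval excluding 1, and dotted lines mark ratios of 2 and 1/2. MANF, PDIA4, CALR and SDF2L1 lie to the left in all 3 panels, which share the control library, while HERPUD1 and ERN1 lie far to the right at 15 µM alone.

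Between the 2 arsenic doses, 8 of 30 members were apart higher at 15 µM than at 5 µM and 6 lower, against 19.6% and 17.5% of all genes. HERPUD1 was 9.80 times as high at 15 µM (7.77 to 12.5), ERN1 8.64 times (6.13 to 12.5) and HSPA5 5.67 times (5.26 to 6.12). MANF, CRELD2, SELENOS, CALR and EDEM1 were also higher, at 7.59, 5.27, 4.77, 2.95 and 2.04 times. ERO1A was at 0.203 (0.161 to 0.254), XBP1 at 0.225 (0.216 to 0.234) and HSP90B1 at 0.330 (0.305 to 0.355) of its 5 µM level, and PDIA3, PDIA6 and WFS1 were lower too. With the GC and length trend removed, 11 members were apart higher and 7 lower. These 14 remained, and DNAJB9, ERO1B and EIF2AK3 (higher) and SDF2L1 (lower) were added. The 19.6% and 17.5% of all genes are shares before that removal.

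With copper added to arsenic at 5 µM, 6 members were apart higher than with arsenic alone and 7 lower, against 16.5% and 13.7% of all genes. XBP1 was at 0.0952 of its level with arsenic alone (0.0899 to 0.101) and HSP90B1 at 0.237 (0.217 to 0.258). ERO1B was lower (4 counts with copper, 21 without, ratio 0.166, 0.0415 to 0.492), as were ERO1A, DNAJC3, PDIA3 and SEC61B. MANF was 7.15 times as high (2.83 to 23.2), CRELD2 4.36 times (2.32 to 8.91) and PDIA4 2.41 times (1.94 to 3.01), and SELENOS, SYVN1 and CALR were also higher. Removing the GC and length trend left 7 of these 13 apart. The copper coefficients with an unadjusted edgeR p under 0.05 were those of XBP1 (−2.69, SE 1.26) and ERO1B (−2.75, SE 1.32), both with an adjusted p of 1. The XBP1 coefficient was −1.26 without the arsenic 5 µM library and −3.39 without the arsenic 15 µM library.

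Hepatocyte markers also differed between these libraries. They summed to 23340 CPM at 5 µM, 9917 CPM at 15 µM and 16300 CPM with copper, against 23730 CPM in the control, and 8, 8 and 3 of the 12 genes were apart lower in those pairs, against 15%, 14.4% and 7.1% of all genes. Their part in the ER results was not tested. All libraries come from HuH-7 cultures, and bulk RNA does not show whether a level differed in all cells or in some of them.

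Acetaminophen was compared in 3 pairs that share no library. Against the control, 6 of 30 members were apart higher and 3 lower, against 13% and 12.1% of all genes. The higher members were DNAJC3 (ratio 2.87, 1.69 to 5.12), SEL1L (2.74, 1.99 to 3.85), ERO1A (2.66, 1.92 to 3.76), PDIA3 (2.26, 1.98 to 2.58), HSP90B1 (2.14, 1.94 to 2.36) and DNAJB9 (2.03, 1.26 to 3.39). The lower ones were SDF2L1 (0.141, 0.0480 to 0.343), MANF (0.200, 0.127 to 0.306) and PDIA4 (0.473, 0.409 to 0.547), and CALR was just short of the limit (0.501, 0.468 to 0.535). This pair followed GC content closely, with r = −0.82 over the 30 members and −0.40 over 17741 genes, and after the GC and length trend was removed MANF alone stayed apart.

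With exosomes present in both libraries, no member was apart higher with acetaminophen and 4 were lower, against 5.22% and 5.17% of all genes: ERO1A (0.309, 0.166 to 0.531), SYVN1 (0.426, 0.198 to 0.816), XBP1 (0.467, 0.404 to 0.539) and HSPA5 (0.499, 0.447 to 0.555). The highest by interval were WFS1 (1.18, 0.974 to 1.42), CALR (1.03, 0.970 to 1.09) and PDIA4 (1.10, 0.959 to 1.25), whose intervals all held 1. The count was 2 under DESeq2's size factors and 2 under protein-coding TMM, and 7 once the GC and length trend was removed, with HSP90B1, SDF2L1 and SEC61B added. With caffeine present in both libraries, 9 were apart higher and 2 lower, against 12.6% and 13% of all genes. The higher ones were ERO1B (4.42, 2.97 to 6.71), MANF (4.02, 3.30 to 4.92), CRELD2 (3.45, 3.02 to 3.95), WFS1 (3.42, 3.13 to 3.74), ERN1 (3.11, 2.61 to 3.72), CALR (2.85, 2.78 to 2.91), PDIA4 (2.21, 2.09 to 2.34), HSPA5 (2.08, 2.01 to 2.15) and HYOU1 (2.02, 1.92 to 2.13). ERO1A (0.356, 0.279 to 0.450) and XBP1 (0.425, 0.401 to 0.451) were lower, and SEC61B was at 0.596 (0.510 to 0.695). With the GC and length trend removed, HYOU1 was no longer apart and DNAJC3 was apart higher. These are the deepest libraries, so their intervals are the narrowest.

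No member was apart in the same direction in all 3 acetaminophen pairs, against 0.554% of all genes higher and 0.68% lower. MANF was at 0.200 of its partner in the first pair and at 4.02 times its partner in the third, and its acetaminophen by caffeine term was 3.02 (SE 1.38) with an unadjusted edgeR p of 0.0288 and an adjusted p of 1. That term ran from 1.73 (without the control) to 4.50 (without acetaminophen and exosomes), and was 1.78 without acetaminophen. With the prior count of 0.5, DNAJB9, DNAJC3, ERO1B and DERL1 had a log2 ratio above 0 in each pair and SEC61B below 0, as did 14.2% and 15% of all genes. DNAJB9 was at 0.01 on the log2 scale in the exosome pair and ERO1B rested there on 1 count, against 4. DNAJC3 was at 2.87, 1.27 (0.812 to 1.92) and 1.79 (1.55 to 2.06) times its partner. The median acetaminophen coefficient of the members was 0.08, beside −0.04 over all genes.

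**Figure D4:**
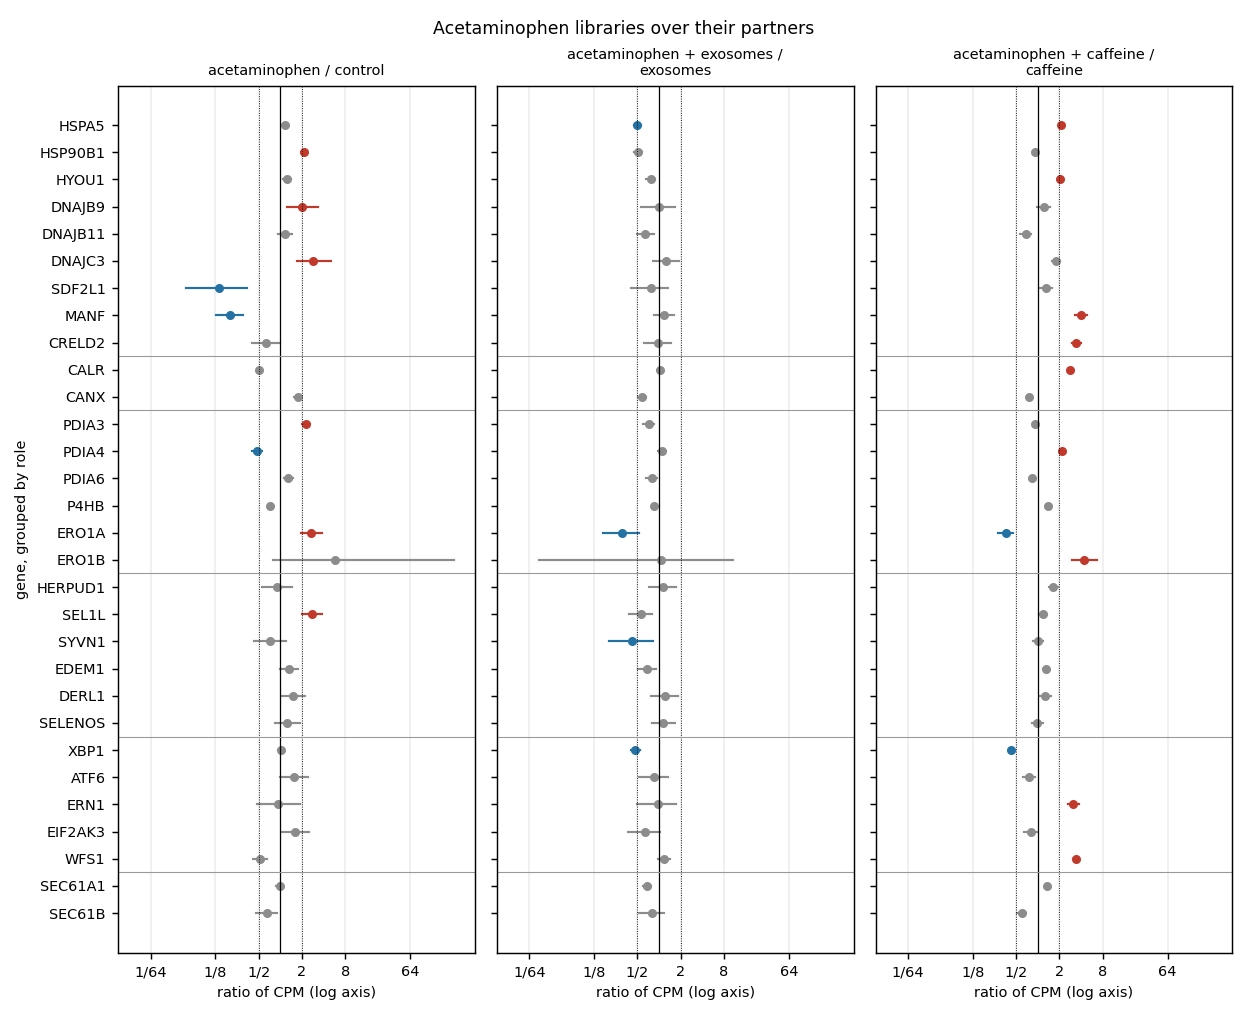
Ratio of each member's scaled CPM with acetaminophen to that of the partner library without it (log axis), on the control, exosome and caffeine backgrounds, with exact conditional binomial 95% intervals and colours as for a ratio of at least 2 with an interval excluding 1. The members that are coloured differ between the panels, and MANF is low in the first (0.200) and high in the third (4.02).

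Caffeine was compared in 2 pairs that share no library. Against the control, DNAJC3 was apart higher (2.59, 1.62 to 4.42) and MANF (0.170, 0.131 to 0.221), DNAJB11 (0.362, 0.299 to 0.440) and WFS1 (0.474, 0.403 to 0.560) lower, against 11.6% and 8.63% of all genes. CANX (1.43, 1.30 to 1.58) and SEL1L (1.59, 1.18 to 2.17) followed DNAJC3 on the higher side. With the GC and length trend removed, SEC61B was also apart higher. Added to acetaminophen, caffeine had 10 members apart higher and 7 lower, against 18.8% and 15% of all genes. The largest ratios by their interval were CRELD2 (4.46, 3.25 to 6.27), CALR (3.57, 3.39 to 3.77) and SDF2L1 (7.21, 3.24 to 19.9), and the smallest ERO1A (0.137, 0.105 to 0.179), DNAJB11 (0.214, 0.175 to 0.261) and HSP90B1 (0.271, 0.253 to 0.291). ERN1 (4.60), HERPUD1 (2.97), MANF, PDIA4, P4HB, ERO1B and WFS1 were also higher, and PDIA3, PDIA6, XBP1 and EIF2AK3 lower. With the GC and length trend removed, PDIA4, PDIA6, P4HB, XBP1, EIF2AK3 and WFS1 were no longer apart in that pair and DNAJC3 was apart higher. DNAJB11 was the 1 member apart lower in both pairs, against 1.72% of all genes, and none was apart higher in both, against 3.59%. Its caffeine coefficient was −1.87 (SE 0.67) with an unadjusted edgeR p of 0.00891 and an adjusted p of 0.484. ERO1A had −1.68 (SE 0.82) with an adjusted p of 0.679, and its coefficient was 0.14 without the acetaminophen library.

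Exosomes were compared in 2 pairs that share no library. Against the control, 0 members were apart in either direction, against 3.58% of all genes higher and 1.44% lower, and the ratios ran from 0.589 (MANF, 0.461 to 0.756) to 1.74 (DNAJC3, 1.05 to 3.05). SEL1L (1.71, 1.25 to 2.37), HSP90B1 (1.34, 1.22 to 1.47) and CANX (1.34, 1.21 to 1.48) were the highest by interval, and PDIA4 (0.742, 0.666 to 0.828) and CALR (0.833, 0.792 to 0.876) followed MANF on the lower side. Added to acetaminophen, 2 were apart higher and 9 lower, against 10.2% and 8.89% of all genes. MANF (3.49, 2.18 to 5.73) and SDF2L1 (15 counts, against 6, ratio 4.53, 1.66 to 14.3) were higher. ERO1A (0.148, 0.0790 to 0.254), HSP90B1 (0.319, 0.280 to 0.362), PDIA3 (0.331, 0.280 to 0.389), SEL1L, XBP1, CANX, EIF2AK3, HSPA5 and DNAJB9 were lower. This pair shares the acetaminophen library with the acetaminophen against control pair, and its log2 ratios were higher the higher the GC content (r = 0.77 over the 30 members, 0.34 over 17741 genes). With the GC and length trend removed, HSPA5, DNAJB9, SDF2L1, CANX and EIF2AK3 were no longer apart there, and SYVN1 and SEC61B were apart lower. No member was apart in the same direction in both exosome pairs, against 0.0932% of all genes higher and 0.0384% lower.

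**Figure D5:**
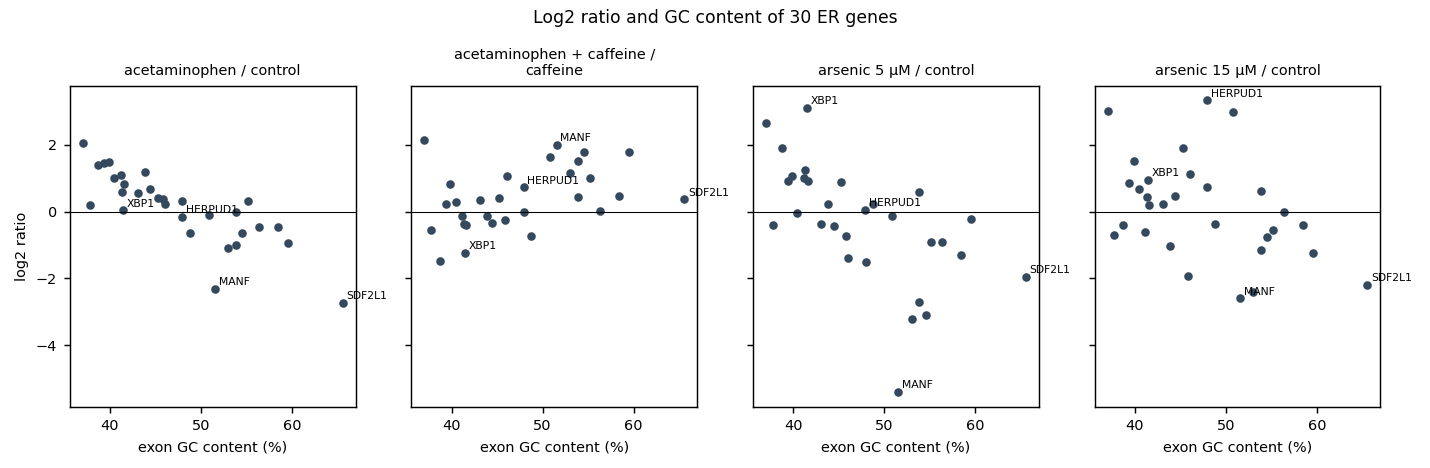
Log2 ratio of each of the 30 members against the GC content of its longest transcript, in 4 library pairs. The correlation with GC content is negative for acetaminophen over control (r = −0.82) and arsenic 5 µM over control (r = −0.61) and positive for acetaminophen with caffeine over caffeine (r = 0.41), and HERPUD1 lies at the top of the arsenic 15 µM panel (r = −0.42).

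Members with an ERSE in the promoter window were spread over both directions. In the arsenic 15 µM pair the 8 with an ERSE had a median log2 ratio of −0.20 (from −1.93 to 3.01). The 20 with a window but no match to that first form had 0.22 (from −2.60 to 3.33). These 20 include HYOU1, SDF2L1 and HERPUD1, so they do not all lack an ER stress element. With acetaminophen and caffeine over caffeine the medians were 0.46 and 0.38. HSPA5 and CALR, which both hold an ERSE, were at 2.18 and 0.452 of the control at 15 µM. HYOU1, SDF2L1 and HERPUD1, which hold an ERSE-II, were at 0.68, 0.216 and 10.2 times the control there.

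The other genes of the pathway were read from lists. In the additive fit, edgeR called 0 of 22 further ER folding and glycan genes, 0 of 22 further degradation genes, 0 of 21 translocation, signal peptidase and oligosaccharyltransferase genes, 0 of 9 proteases and ER-resident transcription factors and 0 of 18 ER exit genes, in every one of the 8 terms. The shares of all genes called in those terms are given above. At an unadjusted edgeR p under 0.05 for arsenic there were 4, 0, 2, 1 and 0 genes in the same order, against 9.16% of all genes. The values with the smallest p there included PDIA5, a disulfide isomerase (−1.81, SE 0.67, edgeR adjusted p 0.295), and CREB3L1, an ER-anchored transcription factor (2.70, SE 1.01, edgeR adjusted p 0.310). CREB3L1 had 35.9 CPM at 15 µM, against 3.86 CPM in the control.

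The 10 genes of the PERK and ATF4 output list were set apart from these. Their arsenic coefficients were all positive (median 3.01), and edgeR called 3 of 10, against 0.494% of all genes: CHAC1 (4.83, SE 0.97, adjusted p 0.0140), SESN2 (5.06, SE 1.07, adjusted p 0.0170) and ATF3 (5.04, SE 1.03, adjusted p 0.0140). With single libraries left out, the number of arsenic calls over all genes ran from 0 to 780. The arsenic 15 µM term called 4 of the 10 (PPP1R15A, ATF3, SESN2 and CHAC1), against 1.09% of all genes. At 15 µM all 10 were apart higher than the control, at 5 µM 6 and with copper 8, against 16.5%, 16.4% and 9.26% of all genes. DDIT3, the death-linked factor CHOP, had 336 CPM at 15 µM, 115 at 5 µM and 109 with copper, against 35.7 CPM in the control, and its arsenic coefficient was 2.73 (SE 0.76, edgeR adjusted p 0.0906, DESeq2 adjusted p 0.0296). ATF4 had 1519 CPM at 15 µM, against 518 CPM in the control. With acetaminophen and caffeine over caffeine, 8 of these 10 were apart higher, against 12.6% of all genes. PERK activity was not measured, and the part of PERK in these levels was not tested.

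The cytosolic counterparts of the ER chaperones were set beside them. Arsenic coefficients were positive for all 8 (median 1.57), and edgeR called HSPA1A (6.45, SE 1.38, adjusted p 0.0189) and HSPA1B (5.11, SE 1.15, adjusted p 0.0273), near-identical copies whose reads cannot be split with certainty (DESeq2 adjusted p 0.0526 and 0.00015). That is 2 of 8, against 0.494% of all genes, and the arsenic 15 µM term called 3 (HSPA1A, HSPA1B and DNAJB1), against 1.09%. At 15 µM, 7 of 8 were apart higher than the control, against 16.5% of all genes. HSP90AA1, the inducible cytosolic HSP90, had 6132 CPM there, against 1087 CPM in the control, while the ER form HSP90B1 had 343 CPM, against 524 CPM. HSPA8, the constitutive cytosolic HSP70, had 3058 CPM, against 2695 CPM in the control. The arsenic coefficients of the 30 ER members had a median of −0.25, with 9 positive and 21 negative, beside 0.07 over all genes.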

How the data were processed

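The authors deposited, for each of the 9 HuH-7 libraries, a table of raw read counts per Ensembl gene. TopHat2 2.0.13, HTSeq 0.6.1 and GRCh37 are named in the submitters' processing notes. No annotation release, strand setting or filter was found in these sources. HTSeq's summary lines, 42.3% (acetaminophen) to 70.3% (acetaminophen with exosomes) of all reads listed, were left out of library sizes. The filter kept genes reaching 1 CPM in 2 or more libraries, and TMM scaling and quasi-likelihood tests were run in edgeR 4.0.16 (limma 3.58.1, R 4.3.3), with DESeq2 1.42.0 as an alternative. Each SE is the size of the log2 fold change over the root of its F statistic. The fits were tested on simulated data. Ratios, intervals and figures were made with Python 3.11.15, numpy 2.4.6, pandas 2.3.3, scipy 1.17.1 and matplotlib 3.10.9. Gene names, exon length and GC content came from GENCODE 29, with no coordinates converted, and promoter windows from RefSeq. The GC and length trend was a polynomial of degree 3 over 17741 genes, in the GC content and log2 length of each gene's longest transcript. In GENCODE 29, 17 of the 31 members share exon positions with another listed gene, so their counts are uncertain without the strand setting. Levels in every library are given for HSPA5, HSP90B1, HERPUD1, DNAJB9, SDF2L1, XBP1, members apart the same way in all pairs of a factor or all 3 arsenic pairs, and members called; each pair names its 3 highest and 3 lowest by interval bound. The members and lists were chosen with earlier results of these data known.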

Additional observations from a re-analysis of the deposited data

Results flagged for a closer look

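HERPUD1 and ERN1 were higher in the arsenic 15 µM library than the level fitted to the other 2 arsenic libraries, 1 of which also had copper. The log2 difference was 3.02 for HERPUD1 (edgeR adjusted p 0.0149) and 2.76 for ERN1 (edgeR adjusted p 0.0400). There is 1 library at 15 µM, so no replicate bears on a difference between doses, and both calls were lost without any 1 of 5 other libraries (edgeR adjusted p 0.195 and 0.319 without arsenic at 5 µM).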

How the results depend on the processing

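No paired analysis was possible because the labels give no replicate numbers that pair libraries. The additive fit compared acetaminophen, exosomes and caffeine across their backgrounds. Arsenic occurred without those agents, and copper in 1 arsenic library alone. The counts of members apart in this paragraph have no share of all genes at the same setting beside them. None is read as an excess. With the GC and length trend removed, the members apart numbered 1 for acetaminophen over control, 7 for acetaminophen with exosomes over exosomes, 4 for arsenic with copper over control and 7 for copper added to arsenic. The median log2 ratio was then 0.081 for acetaminophen with caffeine over acetaminophen and −0.23 for arsenic with copper over control. DESeq2 size factors and protein-coding TMM each left 2 apart for acetaminophen with exosomes over exosomes. With a fold of at least 3, the members apart were 2 for acetaminophen over control, 1 with exosomes present, 5 with caffeine present, 5 for exosomes added to acetaminophen, 1 for caffeine over control, 11 for caffeine added to acetaminophen, 8 and 8 for arsenic at 5 and 15 µM over control, 2 for arsenic with copper over control, 9 for 15 over 5 µM and 6 for copper added to arsenic.

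Over all genes, acetaminophen calls numbered 46 with no filter, 52 by DESeq2, 2 with protein-coding genes alone and 249 over the 6 libraries without arsenic, and exosome calls 3 in that last setting. Caffeine calls numbered 7 with DESeq2 size factors, 49 with no filter, 56 by DESeq2, 3 with protein-coding genes alone and 292 without the arsenic libraries. Arsenic calls numbered 24, 269, 175 and 1 under the first 4 of those settings, with 1 member called with no filter. The arsenic 15 µM term had 96 calls by DESeq2 and 46 with protein-coding genes alone, with 1 member called by DESeq2, 1 with no filter and 1 with protein-coding genes alone.

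With 1 library left out at a time, calls ran from 0 to 179 for acetaminophen, 0 to 3 for exosomes, 0 to 221 for caffeine, 0 to 780 for arsenic, 17 to 775 for the 15 µM term and 0 to 52 for copper, and members called from 0 to 2 for arsenic and 0 to 2 for the 15 µM term. The median member coefficient ran from −0.10 to 0.21 for acetaminophen, −0.63 to 0.07 for exosomes, −0.19 to 0.46 for caffeine and −0.50 to −0.05 for arsenic. The ERO1A caffeine coefficient ran from −2.92 to 0.14 (without acetaminophen) and the MANF arsenic coefficient from −3.08 to 0.34 (without the control). The cause was not tested. Depth limits SDF2L1, MANF and ERO1B, which rest on 6 or fewer counts in at least 1 library.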
